A study of Homo sapiens with 16 samples.

Results

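The 8 genes described here are *IFIT1*, *IFIT2*, *IFIT3* and *IFIT5* of the IFIT family (interferon-induced proteins with tetratricopeptide repeats) and *OAS1*, *OAS2*, *OAS3* and *OASL* of the OAS family (2′-5′ oligoadenylate synthetases). They were chosen by name, and all 8 were found by their human Ensembl identifiers among the 33937 genes of the deposited count table. The RNA came from HCT116, a long-established line of human colorectal carcinoma cells, carrying a doxycycline-inducible short hairpin RNA that is either a scramble sequence (SCR) or directed against *NAA40* (NAA40-KD). *NAA40* encodes an enzyme that acetylates the N-termini of histones H4 and H2A. The 16 libraries fell into 4 groups of 4, with each of the lines SCR and NAA40-KD labelled either +dox or -dox. The +dox groups are labelled as doxycycline treated, with Dox in their short names. The labels of the -dox groups do not mention treatment, and their short names hold wDox. The study's methods give 96 h with or without 1 μg/ml doxycycline. All groups share the cell line and a stably introduced hairpin construct. The libraries of a condition are described by the study as independent RNA samples, with no word on separate cultures, so p-values measure the spread between these samples, which may be technical.

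*NAA40* was checked first, because it is the targeted gene. Its level, in CPM (counts scaled to a common library size) after TMM scaling, a correction for library composition, was 29.4 ± 3.62 in SCR (-dox), 27.3 ± 1.44 in SCR (+dox), 11.8 ± 1.93 in NAA40-KD (-dox) and 30.3 ± 1.58 in NAA40-KD (+dox) (mean ± SD, n = 4). The low group was thus the one labelled NAA40-KD (-dox), at 40.2% of SCR (-dox) (exact permutation test, two-sided, p = 0.0286, the smallest that 4 against 4 allows), and in those labelled NAA40-KD (+dox) it stood at 111% of SCR (+dox) (exact permutation test, two-sided, p = 0.0571). This goes against the labels of an inducible hairpin, so every group is called by its label throughout, and each direction given below is a direction between labels. One library, NAA40-KD (-dox) replicate 4, stood apart from the others. Its log2 levels deviated from those of its fellow replicates with an SD of 0.942 over genes, against 0.242 to 0.416 in the other 15 libraries, and its GC-rich genes were high relative to its GC-poor genes by 1.95 on the log2 scale, against -0.69 to 0.44 elsewhere. Results that rest on this library are given with and without it. The epithelial markers of the cell line were present, 7 of 8 above 1 CPM in every library, all but *CEACAM5*. Their summed level was 5650 to 12303 CPM in NAA40-KD (-dox) and 4045 to 5819 CPM in the other groups, and 5650 to 6614 CPM in the first group without replicate 4. The summed markers of fibroblasts, of which *COL1A1* alone passed 1 CPM in every library, had 68.0 to 195.7 CPM in NAA40-KD (-dox), 68.0 to 81.6 CPM without replicate 4 and at most 93.9 CPM elsewhere. The part of these levels in the results was not tested. The summed leukocyte markers stayed at or below 1.38 CPM and the endothelial ones at or below 2.96 CPM.

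Both families belong to the antiviral programme that cells switch on when type I or type III interferon reaches its receptor. JAK kinases at the receptor then activate transcription factors, STAT2 and IRF9 among them, that bind promoters at repeats of a GAAA core. IFIT proteins carry no enzymatic activity and bind viral RNA by features of its 5′ end, whereas OAS1, OAS2 and OAS3 are enzymes that sense double-stranded RNA and make 2′-5′ oligoadenylates, the second messengers of this antiviral response. Several of these genes can also be switched on directly by IRF3, without interferon, *IFIT1*, *IFIT2* and *IFIT3* among them.

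The 4 IFIT genes lie in one cluster on chromosome 10 (GRCh38, GENCODE release 29), all on the plus strand: *IFIT2* at chr10:89283694-89309276, *IFIT3* at chr10:89327894-89340971, *IFIT1* at chr10:89392546-89406486 and *IFIT5* at chr10:89414586-89421001. On chromosome 12, *OAS1* (chr12:112906777-112933222), *OAS3* (chr12:112938352-112973249) and *OAS2* (chr12:112978395-113011723) lie in a row on the plus strand, and *OASL* (chr12:121019111-121039242) lies apart from them on the minus strand. *LIPA*, on the opposite strand, spans *IFIT1*, *IFIT2* and *IFIT3* and shares exonic bases with *IFIT2*. *AL353751.1*, on the same strand as *IFIT2*, shares exonic bases with it too, so that even counting by strand would not separate these. The antisense gene *AC004551.1* spans *OAS1*, *OAS2* and *OAS3* in whole or in part and shares exonic bases with *OAS1* alone. Whether the counting used strand is not given in the sources used here, so that reads of such partners cannot be told apart from those of the members, whereas *IFIT5* and *OASL* overlap no annotated gene.

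The promoter sequences are shown because each member with an entry held a GAAA repeat, and the part of the repeat in their levels was not tested. RefSeq promoter windows (GRCh38.p14, 250 bases before to 50 after the start site) were at hand for 5 of the 8 members, *IFIT1*, *IFIT3* (with 2 start sites), *IFIT5*, *OAS1* and *OAS3*; *IFIT2*, *OAS2* and *OASL* had none. On either strand, GAAANNGAAA occurred in 3.57% of all 35116 windows and GAAANGAAA in 3.12%, which may overlap each other, and 6.40% held at least one of them. Each of the 5 members held a match. The stretches below are written 5′ to 3′ on the plus strand, the strand of these genes, with the matches in capitals.
*IFIT1*, chr10:89392497-89392539: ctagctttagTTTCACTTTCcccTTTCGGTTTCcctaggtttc
*IFIT3*, first start, chr10:89327831-89327894: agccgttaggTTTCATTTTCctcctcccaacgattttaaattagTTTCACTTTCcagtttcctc
*IFIT5*, chr10:89414513-89414567: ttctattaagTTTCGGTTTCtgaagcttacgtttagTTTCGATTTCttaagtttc
*OAS1*, chr12:112906935-112906961: cccttctgagGAAACGAAAccaacagc
*OAS3*, distal, chr12:112938316-112938350: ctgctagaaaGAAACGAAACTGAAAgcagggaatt
*OAS3*, proximal, chr12:112938452-112938473: agccgggcggGAAAACGAAAcc
In *IFIT1*, 2 matches lay 3 bases apart, between 116 and 94 bases before the start site. *IFIT5* held 3 matches, of which the last crossed the start site and is not capitalised. The *OAS1* window held the match with the 1-base gap alone. The second start of *IFIT3* held 2 matches with the 2-base gap and 1 with the 1-base gap. They lay between 94 and 37 bases before that start site, and this stretch is not printed. A match is a description of letters, and no binding was measured.

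**Figure D1:**
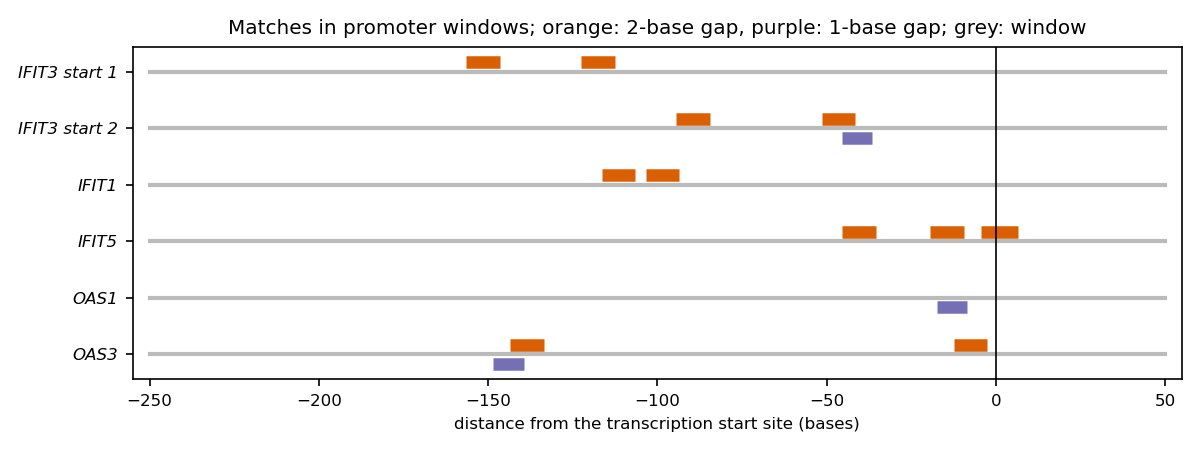
Matches to the GAAA repeat in the promoter windows of 5 members, plotted against the distance from the transcription start site in bases; orange bars have the 2-base gap, purple bars the 1-base gap, and the grey line is the window searched. The matches of *IFIT1* and of the first start of *IFIT3* lie more than 90 bases upstream, whereas those of *IFIT5* and *OAS1* lie within 50 bases of the start site.

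Levels between genes were compared per exonic length, as RPKM (CPM per kilobase of exon). In SCR (-dox), *OAS3* was the highest at 10.8 ± 0.675 RPKM (SD, n = 4), followed by *IFIT5* at 6.31 ± 0.589, *OASL* at 1.97 ± 0.283 and *IFIT1* at 1.38 ± 0.0978, and the ranges of these neighbours did not overlap. *IFIT2* at 1.06 ± 0.126 RPKM and *IFIT3* at 1.04 ± 0.313 RPKM came next and overlapped each other. The range of *IFIT3* (0.740 to 1.47 RPKM) also overlapped that of *IFIT1* (1.27 to 1.49 RPKM). *OAS1* at 0.211 ± 0.0634 RPKM and *OAS2* at 0.0355 ± 0.00515 RPKM stood last. Only 7 to 25 counts per library lay behind *OAS1* and 1 to 8 behind *OAS2*, which in this depth of 11065606 to 13855486 counts per library limits both to coarse statements. In NAA40-KD (-dox) the top of the order closed up: *OAS3* had 9.99 ± 1.36 RPKM, *OASL* 7.17 ± 1.62, *IFIT5* 5.81 ± 1.95 and *IFIT1* 5.71 ± 1.5, with overlapping ranges between each pair of neighbours. Without replicate 4 the ranges of *OAS3* (9.11 to 9.70 RPKM) and of the others no longer overlapped, and *IFIT5* (6.49 to 7.0 RPKM), *IFIT1* (5.86 to 6.74 RPKM) and *OASL* (6.19 to 6.65 RPKM) overlapped as neighbours in that order. In NAA40-KD (+dox), *IFIT3* at 2.01 ± 0.238 RPKM stood above *IFIT1* at 1.43 ± 0.176 RPKM without overlap, an order not found in the other 3 groups.

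**Figure D2:**
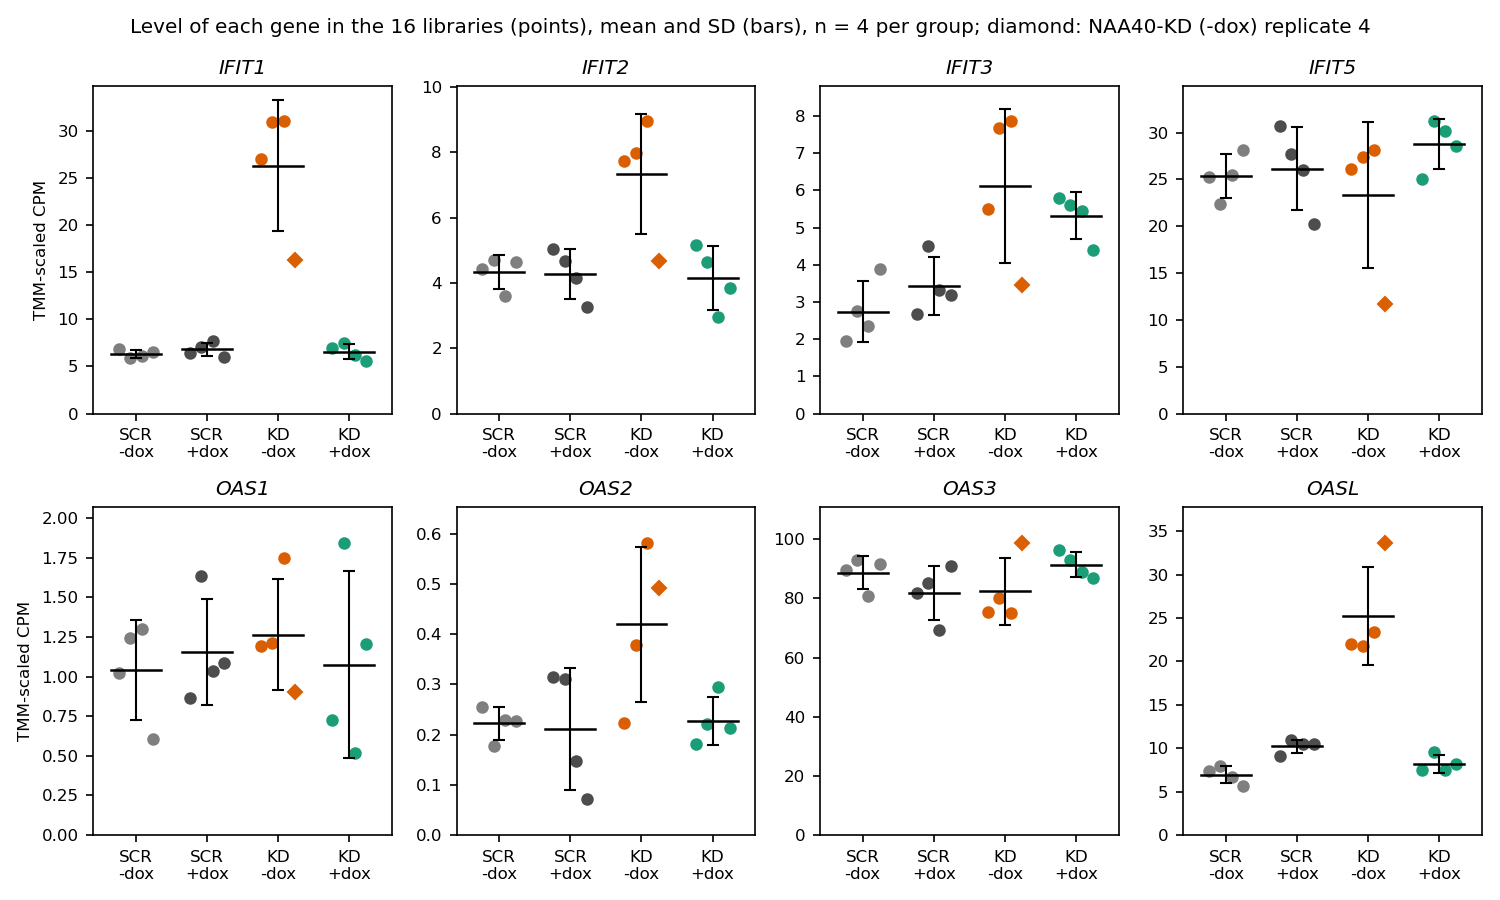
TMM-scaled CPM of each member (vertical axis, from 0) in the 16 libraries, grouped by label; points are libraries, lines are group means and bars are SDs over 4 libraries, and the diamond is NAA40-KD (-dox) replicate 4. *IFIT1* and *OASL* in NAA40-KD (-dox) lie above every other group, and the diamond is the lowest point of that group for all 4 IFIT genes and the highest for *OASL* and *OAS3*.

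The first comparison set NAA40-KD (-dox) against SCR (-dox), the pair in which *NAA40* differed. Of the 7 members that passed the filter on low counts (CPM over 1 in at least 4 libraries; *OAS2* did not), 2 rose and 0 fell at an adjusted p under 0.05 (edgeR's quasi-likelihood test, Benjamini-Hochberg over all genes tested), *IFIT1* and *OASL*. Among all 13903 genes tested, 2.88% rose and 3.54% fell. Both members also changed by more than 1 on the log2 scale, as 1.63% of all genes did upwards. The median log2 fold change of the 7 tested members was 0.76, against 0.04 for all genes.

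*IFIT1* binds viral RNA whose cap lacks the methyl mark of the cell's own transcripts. In the 4 libraries labelled NAA40-KD (-dox) it had 27.0, 31.0, 31.1 and 16.3 CPM in the order of their numbers. In SCR (-dox) it had 6.88, 5.87, 6.11 and 6.53 CPM, in SCR (+dox) 6.44, 7.08, 7.70 and 6.02 CPM, and in NAA40-KD (+dox) 6.99, 7.46, 6.26 and 5.61 CPM. Thus the lowest of the 4 libraries labelled NAA40-KD (-dox), the one that stands apart, still lay above all 12 others. The change against SCR (-dox) was 2.06 ± 0.22 on the log2 scale (SE), a 4.16-fold rise with a 95% interval of 2.97 to 5.84 (adjusted p = 0.00268). Without replicate 4 it was 2.22 ± 0.12 on the log2 scale (adjusted p = 2.34e-08).

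*OASL* has an OAS-like fold and ubiquitin-like repeats but makes no oligoadenylates, and it enhances signalling by the RNA sensor RIG-I. It had 22.0, 21.8, 23.4 and 33.7 CPM in NAA40-KD (-dox). The values were 7.39, 8.0, 6.64 and 5.70 CPM in SCR (-dox), 9.11, 10.9, 10.4 and 10.4 CPM in SCR (+dox), and 7.53, 9.60, 7.44 and 8.17 CPM in NAA40-KD (+dox). Here too the 4 libraries lay above the other 12, but in contrast to *IFIT1* it was the highest of them that came from replicate 4. *OASL* rose by 1.87 ± 0.21 on the log2 scale against SCR (-dox), 3.67-fold (adjusted p = 0.00296), and by 1.69 ± 0.13 without replicate 4 (adjusted p = 2.72e-07). The longest annotated transcript of *OASL* is 51.4% GC and that of *IFIT1* 42.2%. The GC-rich genes that stood high in replicate 4 were those over 54.1% GC, and the GC-poor ones were those under 44.2%. *OASL* lay between these limits, and the part of GC content in its level was not tested.

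*IFIT2*, which binds AU-rich RNA, and *IFIT3*, whose protein stabilises IFIT1 in a complex, were higher on average but did not pass the test with all 4 libraries. *IFIT2* had 7.75, 7.97, 8.96 and 4.68 CPM in NAA40-KD (-dox) against 4.42, 4.71, 3.59 and 4.63 CPM in SCR (-dox). The first 3 of its libraries were above every control and replicate 4 lay among the controls. The log2 fold change was 0.76 ± 0.22 (adjusted p = 0.0708), and without replicate 4 *IFIT2* rose by 0.92 ± 0.16 (adjusted p = 4.42e-04). *IFIT3* had 5.51, 7.67, 7.86 and 3.45 CPM against 1.95, 2.76, 2.37 and 3.87 CPM. Again replicate 4 was the one library within the range of the controls. The log2 fold change was 1.16 ± 0.31 (adjusted p = 0.0548), and without replicate 4 *IFIT3* rose by 1.34 ± 0.22 (adjusted p = 2.99e-04). *LIPA*, which shares exonic bases with *IFIT2*, had 51.2 ± 3.61 CPM in SCR (-dox), with a range of 47.5 to 55.5 CPM. In NAA40-KD (-dox) it had 64.0 ± 23.1 CPM, with 30.3 CPM in replicate 4. Without replicate 4 it had 75.3 ± 6.70 CPM (SD, n = 3), with a range of 67.7 to 80.4 CPM, above every SCR (-dox) library. The part of *LIPA* in the counts of *IFIT2* was not tested.

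The remaining members did not pass in this comparison. *IFIT5*, which binds RNA with a 5′-triphosphate, had 26.1, 27.4, 28.1 and 11.7 CPM in NAA40-KD (-dox) and 25.2, 22.4, 25.5 and 28.2 CPM in SCR (-dox). Apart from replicate 4, the groups lay together, and the 95% interval of its log2 fold change was -0.13 to 0.32 without that library and -0.68 to 0.45 with it. Hence a rise of the size seen for *IFIT1* lay outside both intervals. *OAS3*, the longest of the OAS enzymes and the one with the most RNA here, had 75.5, 80.1, 75.2 and 98.9 CPM against 89.5, 93.1, 80.7 and 91.7 CPM. The log2 fold change was -0.10 ± 0.15 (adjusted p = 0.741), and without replicate 4 it was -0.21 ± 0.08 (adjusted p = 0.0637). *OAS1* changed by 0.29 ± 0.31 on the log2 scale (adjusted p = 0.615, 95% interval -0.41 to 1.00). The interval held 0 and the log2 fold change of *IFIT2*, and it ended below those of *IFIT1* and *OASL*. *OAS2* had a log2 fold change of 0.85 ± 0.59 when genes of any count were tested (adjusted p = 0.512). Without replicate 4, 4 of the 7 tested members rose and 0 fell, with 17.1% of all genes rising and 19.4% falling in that fit.

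Summed over a family, the most abundant genes weighed most. The 4 IFIT genes together had 38.8 ± 3.20 CPM in SCR (-dox), 40.7 ± 5.55 in SCR (+dox), 63.1 ± 18.5 in NAA40-KD (-dox) and 44.8 ± 2.94 in NAA40-KD (+dox). The 4 OAS genes together had 96.9 ± 5.76, 93.4 ± 9.37, 109 ± 16.5 and 101 ± 4.54 CPM in the same order, most of it from *OAS3*. Without replicate 4, the sums in NAA40-KD (-dox) were 72.1 ± 5.10 CPM for the IFIT genes and 101 ± 2.25 CPM for the OAS genes (SD, n = 3). In these bulk samples, a change in the share of cells that express a gene and a change in RNA per cell cannot be told apart.

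**Figure D3:**
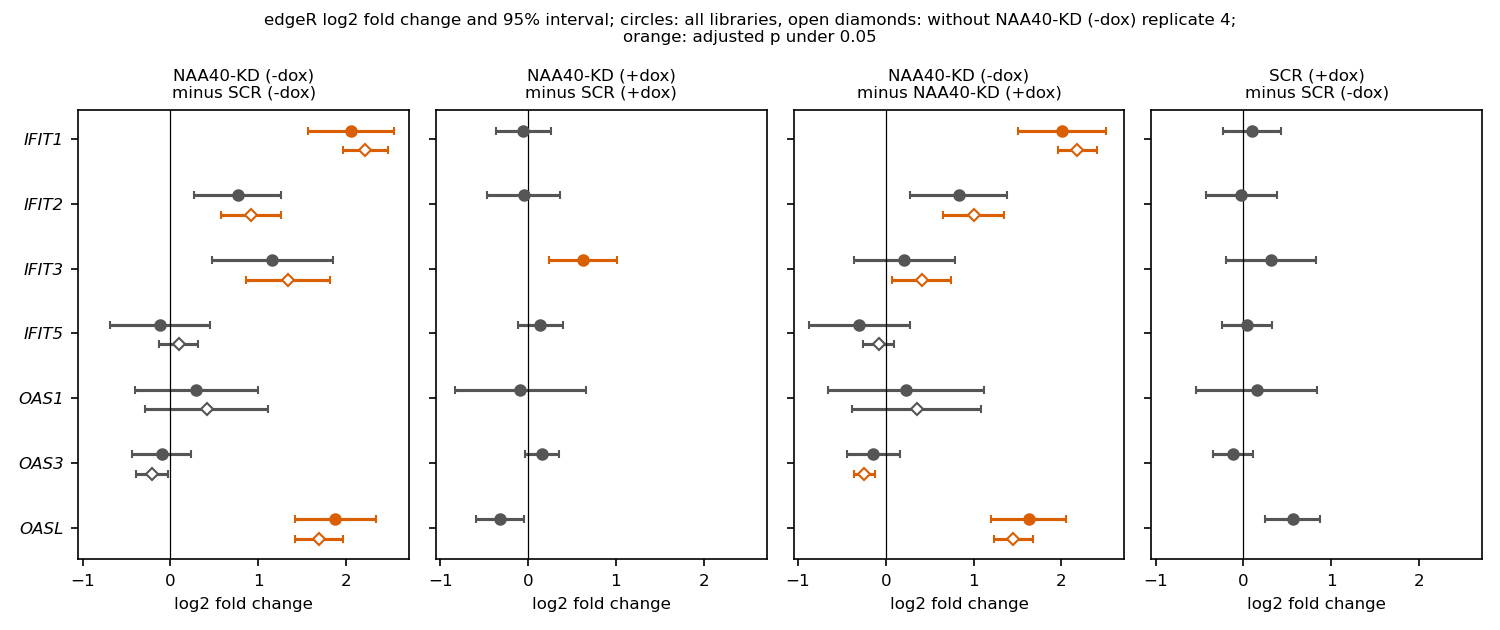
Log2 fold changes of the 7 tested members (horizontal axis) with 95% intervals in 4 comparisons; circles use all libraries, open diamonds leave out NAA40-KD (-dox) replicate 4, and orange marks an adjusted p under 0.05. *IFIT1* and *OASL* are orange in both comparisons that involve NAA40-KD (-dox), with and without the diamond's library, and *IFIT3* alone is orange between the +dox groups.

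Between NAA40-KD (-dox) and NAA40-KD (+dox), the labels differ by doxycycline within the knockdown line. This comparison shares its NAA40-KD (-dox) libraries with the one above, so the values are given side by side. Of the 7 tested members 2 were higher in NAA40-KD (-dox) and 0 lower, when 5.5% of all genes were higher and 4.71% lower. *IFIT1* was higher by 2.00 ± 0.22 on the log2 scale, 4.01-fold (adjusted p = 0.0024), and *OASL* by 1.63 ± 0.19, 3.09-fold (adjusted p = 0.00246). Both passed the fold limit, as did 2.4% of all genes upwards. *IFIT2* had a log2 fold change of 0.83 ± 0.25 (adjusted p = 0.0642). *IFIT3* differed from its behaviour against SCR (-dox), with a log2 fold change of 0.21 ± 0.25 (adjusted p = 0.628), since its level in NAA40-KD (+dox) was itself 5.32 ± 0.627 CPM. *IFIT5* at -0.30 ± 0.26, *OAS1* at 0.23 ± 0.39 and *OAS3* at -0.14 ± 0.13 did not pass. When replicate 4 was left out, 4 members were higher and 1 lower, with 26.6% of all genes higher and 25.8% lower. The added ones were *IFIT2* at 1.00 ± 0.17 (adjusted p = 2.35e-05), *IFIT3* at 0.41 ± 0.16 (adjusted p = 0.0368) and, downwards, *OAS3* at -0.24 ± 0.06 (adjusted p = 0.00105).

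The pair labelled +dox, in which *NAA40* missed the threshold of the exact test, gave another picture. Of the 7 tested members 1 was higher in NAA40-KD (+dox) and 0 were lower, in a comparison where 10.9% of all genes were higher and 13.7% lower, so the member count was near the share of all genes. The one member was *IFIT3*, with 5.81, 5.61, 5.45 and 4.40 CPM in NAA40-KD (+dox) against 2.67, 4.51, 3.33 and 3.19 CPM in SCR (+dox). The groups overlapped by a single pair, 4.40 against 4.51 CPM. Its log2 fold change was 0.63 ± 0.18 (adjusted p = 0.0186). Leaving out one library in turn gave log2 fold changes of 0.53 to 0.79 and adjusted p-values of up to 0.0534, and *IFIT3* no longer passed without SCR (+dox) replicate 1, without NAA40-KD (+dox) replicate 1 or without NAA40-KD (+dox) replicate 2. *IFIT1* at -0.05 ± 0.15, *IFIT2* at -0.05 ± 0.20 and *IFIT5* at 0.14 ± 0.12 lay near 0 in log2 fold change. *OASL* was at -0.32 ± 0.13 (adjusted p = 0.0836), below SCR (+dox), while it rose in the -dox pair. *OAS1* at -0.09 ± 0.36 and *OAS3* at 0.16 ± 0.09 did not pass.

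Between SCR (+dox) and SCR (-dox) no gene passed by edgeR, so that 0.0% of genes were called higher and 0.0% lower, members included. At an unadjusted p under 0.05 there were 271 of 13882 genes by edgeR and 255 by DESeq2, which also called 0 after adjustment. *OASL* was the one member whose libraries did not overlap, 9.11 to 10.9 CPM in SCR (+dox) against 5.70 to 8.0 CPM in SCR (-dox). Its log2 fold change was 0.56 ± 0.15 with a 95% interval of 0.25 to 0.87, and it did not pass the adjustment over all genes (adjusted p = 1.00). The rise of *OASL* in NAA40-KD (-dox) was larger than this difference, since the lowest library of that group had 21.8 CPM. The log2 fold changes of *IFIT1* (0.10 ± 0.16), *IFIT2* (-0.02 ± 0.19), *IFIT3* (0.31 ± 0.24), *IFIT5* (0.04 ± 0.14), *OAS1* (0.15 ± 0.33) and *OAS3* (-0.12 ± 0.11) were within 2 SE of 0.

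The difference of differences, NAA40-KD minus SCR among the -dox libraries less the same among the +dox libraries, was fitted as an interaction over all 16 libraries. At an adjusted p under 0.05 it was positive for 2 and negative for 0 of the 7 tested members, against 4.91% and 4.31% of all 14392 genes. *OASL* had 2.18 ± 0.23 on the log2 scale (adjusted p = 5.18e-05), as its change went upwards in one pair and its fitted value was below 0 in the other. *IFIT1* had 2.10 ± 0.26 (adjusted p = 1.99e-04). Without replicate 4 the order turned, with *IFIT1* at 2.28 ± 0.18 and *OASL* at 2.02 ± 0.18, so neither is ranked above the other. With all libraries both exceeded 1 on the log2 scale, as 2.62% of all genes did. *IFIT2* at 0.81 ± 0.31 (adjusted p = 0.11) and *IFIT3* at 0.53 ± 0.37 (adjusted p = 0.389) did not pass. *IFIT5* at -0.26 ± 0.30, *OAS1* at 0.38 ± 0.51 and *OAS3* at -0.27 ± 0.17 did not pass either. Without replicate 4, 3 members passed as positive and 1 as negative, against 12.3% and 11.9% of all genes. The added ones were *IFIT2* at 0.98 ± 0.26 (adjusted p = 0.00761) and *OAS3* at -0.36 ± 0.12 (adjusted p = 0.0359).

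The rest of the interferon pathway was described from a list of 75 genes, 73 of which were in the table. The 5 interferon genes of the list that were in the table, the ligands of the pathway, all failed the filter on low counts and were not tested. Of 57 tested genes, 4 rose and 0 fell in NAA40-KD (-dox) against SCR (-dox), beside 2.88% of all genes rising and 3.54% falling, and their median log2 fold change was 0.29 against 0.04 for all genes. *ISG15*, a ubiquitin-like modifier, rose by 1.63 ± 0.36 on the log2 scale (adjusted p = 0.0305), and by 1.08 without replicate 4. *IFITM3*, a membrane protein that blocks viral entry, rose by 1.16 ± 0.25 (adjusted p = 0.0271), and by 0.83 without replicate 4. The transcription factor *STAT2* rose by 0.98 ± 0.16 (adjusted p = 0.0103), from 73.6 ± 12.6 to 144 ± 10.2 CPM, and by 0.93 without replicate 4. *USP18*, which removes ISG15 from proteins and dampens the receptor, rose by 0.76 ± 0.19 (adjusted p = 0.0451), and by 0.65 without replicate 4. All 4 still passed without that library. Among the 10 tested RNA and DNA sensors and adaptors and the 6 tested partners of the OAS enzymes, 0 passed in either direction with all libraries. Without replicate 4, 3 of the sensors and adaptors rose (*IFIH1*, *RIGI* and *TLR3*) and 3 fell (*IKBKE*, *MAVS* and *STING1*), and of the partners 2 rose and 2 fell. In that fit 22 of the 57 rose and 9 fell, beside 17.1% and 19.4% of all genes.

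Against NAA40-KD (+dox), 10 of the 57 pathway genes were higher and 1 lower, beside 5.5% and 4.71% of all genes, and without replicate 4 they were 31 and 7, beside 26.6% and 25.8%. These included *ISG15* at 1.86 ± 0.35 on the log2 scale (adjusted p = 0.0141), *IFI6*, a mitochondrial and endoplasmic reticulum protein, at 1.76 ± 0.32 (adjusted p = 0.0122), *BST2*, which tethers budding virus, at 1.5 ± 0.27 (adjusted p = 0.0121) and *DHX58*, a RIG-I-like helicase, at 1.42 ± 0.37 (adjusted p = 0.0432) with overlapping groups. *PLSCR1*, a phospholipid scramblase induced by interferon, was the one that was lower, at -1.04 ± 0.20 (adjusted p = 0.0145). Without replicate 4 all 5 still passed, *ISG15* at 1.33, *IFI6* at 1.44, *BST2* at 1.37, *DHX58* at 1.18 and *PLSCR1* at -0.91 on the log2 scale.

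Between the +dox groups, 7 of the 57 pathway genes were higher and 12 lower in NAA40-KD (+dox), beside 10.9% and 13.7% of all genes. *ISG20*, an exonuclease, was at -1.5 ± 0.14 on the log2 scale (adjusted p = 5.04e-07), with 4.05 ± 0.388 CPM against 11.4 ± 0.585 CPM. *IFI6*, *IFI35* and the transcription factor *IRF7* were each at -1.01, with adjusted p-values of 0.00117, 3.21e-05 and 3.82e-05. Upwards, *PARP9* was at 0.65 ± 0.11 (adjusted p = 2.87e-04), *EIF2AK2*, which encodes the double-stranded RNA kinase PKR, at 0.56 ± 0.11 (adjusted p = 0.00171), the receptor subunit *IFNAR2* at 0.50 ± 0.14 (adjusted p = 0.0132) and the ISG15 ligase *HERC5* at 0.48 ± 0.11 (adjusted p = 0.00396). *IFIT3* was thus higher in the same pair in which *ISG15*, *IFI6* and *BST2* were lower. In the interaction, 8 of 58 tested pathway genes passed as positive and 1 as negative, beside 4.91% and 4.31% of all genes. They were led by *ISG15* at 2.15 ± 0.39 (adjusted p = 0.00288), *IFI6* at 1.91 ± 0.35 (adjusted p = 0.0031), *ISG20* at 1.74 ± 0.30 (adjusted p = 0.00219) and *BST2* at 1.71 ± 0.35 (adjusted p = 0.00636), with *PLSCR1* at -1.02 ± 0.24 (adjusted p = 0.0131). Without replicate 4 these 5 still passed, at 1.63, 1.60, 1.46, 1.59 and -0.88 in the same order. In that fit 19 pathway genes passed as positive and 3 as negative, beside 12.3% and 11.9% of all genes. Between the SCR groups 0 of 57 passed, by edgeR and by DESeq2.

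**Figure D4:**
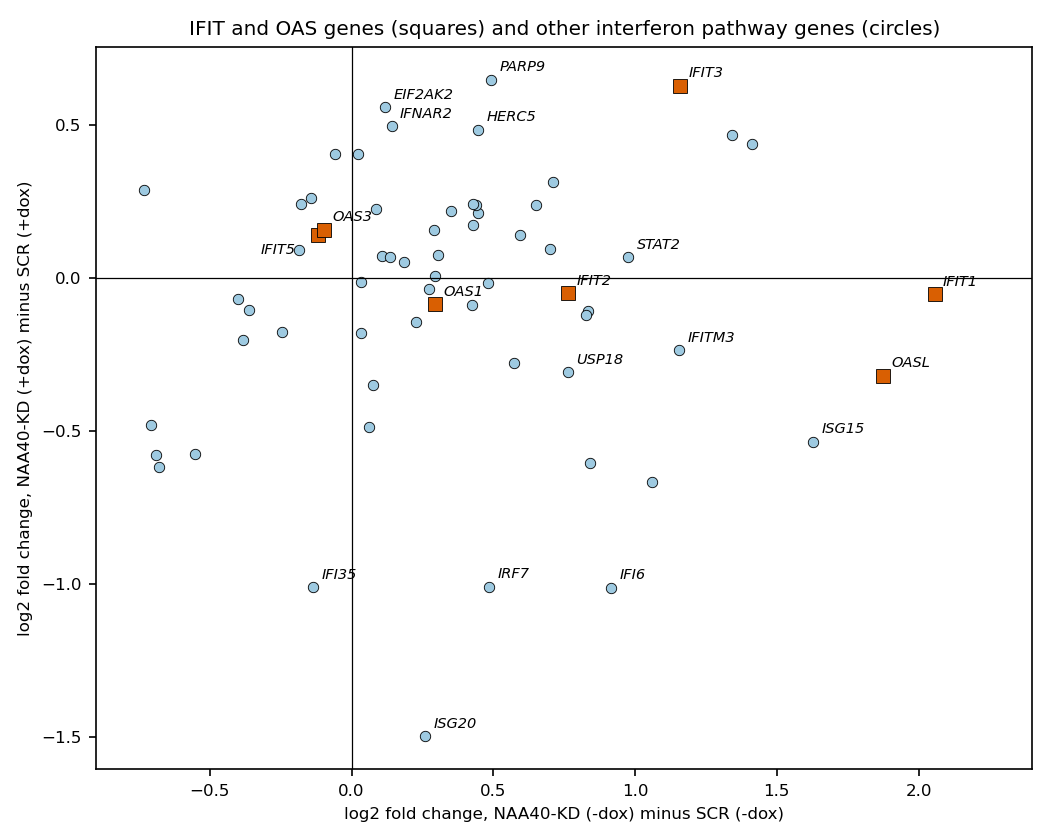
Log2 fold change of NAA40-KD against SCR among -dox libraries (horizontal axis) and among +dox libraries (vertical axis) for 7 members (orange squares) and 57 other interferon pathway genes (blue circles); each symbol is 1 gene. *IFIT1* and *OASL* lie farthest to the right near or below 0 on the vertical axis, *IFIT3* lies above 0 on both, and *ISG20* lies lowest.

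The 7 members that passed the filter did not share one profile over the 16 libraries. *IFIT1* correlated with *OASL* at r = 0.876 and with *OAS3* at -0.412, and *IFIT5* with *OASL* at -0.490. Without NAA40-KD (-dox) replicate 4 these values were 0.933, -0.561 and 0.040 in the same order, so the negative value of *IFIT5* rested on that library. Likeness to the mean of the members is thus not likeness to each of them. The genes most like the mean of the members' standardized profiles were sought by the Pearson correlation of log2 levels. Among 14385 other genes they were *POLH* (r = 0.935), a translesion DNA polymerase, *OCLN* (r = 0.925), the tight junction protein occludin, *FAM114A1* (r = 0.920), *TRIM5* (r = 0.919), a restriction factor against retroviral capsids, and *ALDH6A1* (r = 0.916), a mitochondrial dehydrogenase. *TRIM5* is itself an antiviral gene but was not on the pathway list, and 0 of the 5 were. The 5 genes were highest on average in NAA40-KD (-dox), for example *OCLN* with 71.9 CPM against 37.4 to 44.5 CPM in the other groups. The 16 points of such a correlation share 4 groups of libraries and the one library that stands apart, so it describes likeness of profile and nothing more.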

How the data were processed

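RNA-seq of 16 HCT116 libraries, 4 per group, was analysed. The authors aligned reads with STAR and counted them per gene with featureCounts, and the values they deposited are raw counts, with no normalization. The methods name a mouse build, the processing notes hg38 and GRCm38, and all identifiers are human; the strand setting is not given in the sources used here. Groups came from the sample labels, and 0 columns of counts could not be matched to a sample. A symbol was found for 33590 of 33937 identifiers, and 33811 were in GENCODE release 29, which gave positions, lengths and GC content. Replicate pairs differed by more than sampling noise (chi-square per degree of freedom 1.74 to 140).

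Counts were TMM-scaled and fitted with edgeR 4.0.16 in R 4.3.3 (robust quasi-likelihood F test, two-sided, genes with CPM above 1 in at least 4 libraries of the fit). Each pair of groups was fitted on its own 8 libraries and the interaction on all 16. A gene passed at an adjusted p under 0.05 (Benjamini-Hochberg over all tested genes) and was differentially expressed with a log2 fold change beyond 1 as well. The standard error was the log2 fold change over the root of F. The fit was tested on simulated data. Alternatives were DESeq2 1.42.0, limma-voom (limma 3.58.1), library size alone, upper-quartile scaling, no filter, a filter met by each library, one fit of the 16 libraries together, a replicate block, each library left out, and adjusted p limits of 0.01 and 0.1; an offset for GC content was added after seeing the data. The numbers were taken to pair libraries only if the deviations of all 4 same-numbered pairs correlated above 0.1, which no comparison met (0.032 to 0.225 between the NAA40-KD groups, the nearest).

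The members and the gene lists were chosen with earlier results of these data known. Named genes were all members, *NAA40* and the 5 genes most like the mean profile of the members (log2 of CPM plus 1). Up to 4 pathway genes per direction and comparison were also named, with the largest fold change among those that passed. *LIPA* was named after its values were seen. Some items are not reported here.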

Additional observations from a re-analysis of the deposited data

Results flagged for a closer look

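Of the 32 combinations of a member and a group, 2 held a library far from the other 3 by Dixon's 95% criterion for 4 values, and chance flags about 1 in 20. Both were NAA40-KD (-dox) replicate 4, the library that stands apart by GC content. *IFIT5* had 11.7 CPM there against 26.1 to 28.1 CPM in the other 3 libraries, and *OASL* had 33.7 CPM against 21.8 to 23.4 CPM. The longest annotated transcript of *IFIT5* is 37.4% GC and that of *OASL* is 51.4% GC, and the part of GC content was not tested.

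The effect of the line differed between the label groups for *IFIT1* and *OASL*, by the interaction term over 16 libraries. The interaction was 2.10 on the log2 scale for *IFIT1* and 2.18 for *OASL*. Both are differences between labels whose order *NAA40* contradicts.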

How the results depend on the processing

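*IFIT1* and *OASL* passed upwards in both comparisons of NAA40-KD (-dox) and in the interaction under every alternative fit run and with each library left out. Against SCR (-dox), 4 members passed in place of 2 by DESeq2, in a fit over all 16 libraries, with the GC offset and at an adjusted p limit of 0.1, 3 passed with no filter (*IFIT3* added, adjusted p = 0.0236), and leaving out 1 library gave 2 to 4, the 4 without NAA40-KD (-dox) replicate 4. Against NAA40-KD (+dox), 3 passed by DESeq2, in the fit over all 16 libraries and at a limit of 0.1, with *IFIT2* added. With the GC offset 3 members passed upwards and 1 downwards, *OAS3*, both against NAA40-KD (+dox) and in the interaction. Of all genes, 22.3% passed upwards and 21.9% downwards in the first of these, and 14.7% and 14.4% in the interaction. Leaving out 1 library gave 2 to 5 members against NAA40-KD (+dox) and 2 to 4 in the interaction. The count of 1 between the +dox groups, *IFIT3*, became 0 in the fit over all 16 libraries and at a limit of 0.01, 2 at a limit of 0.1 with *OASL* added, and 0 to 1 with 1 library left out. For the pathway list, 4, 11 and 9 genes passed against SCR (-dox), against NAA40-KD (+dox) and in the interaction. With the GC offset they were 28, 29 and 20, and without replicate 4 they were 31, 38 and 22. Upwards and downwards, the GC offset gave 20 and 8 against SCR (-dox), beside 17.8% and 18.3% of all genes. Against NAA40-KD (+dox) it gave 23 and 6, beside 22.3% and 21.9%, and in the interaction 18 and 2, beside 14.7% and 14.4%. Without replicate 4 the shares of all genes were 17.1% and 19.4%, 26.6% and 25.8%, and 12.3% and 11.9% in the same order. With the replicate number as a block, 2 members passed against SCR (-dox), where 24 genes rose and 58 fell in place of 400 and 492, and the block changed no count of members; the numbers are no design pairing. Reversed log2 fold changes were all of members that did not pass: *IFIT5* against SCR (-dox), 0.028 with the GC offset and -0.21 to 0.10 with 1 library left out; between the +dox groups, -0.12 to 0.024 for *IFIT1*, -0.16 to 0.091 for *IFIT2* and -0.48 to 0.16 for *OAS1*; against NAA40-KD (+dox), -0.0056 to 0.62 for *OAS1*; between the SCR groups, -0.12 to 0.087 for *IFIT2*, -0.051 to 0.15 for *IFIT5* and -0.058 to 0.28 for *OAS1*. In all, 598 fold changes kept direction and side, 20 newly passed, 4 no longer passed and 17 reversed, and the cause was not tested. *NAA40* stayed at 37.9% to 43.0% of SCR (-dox) and 36.8% to 41.8% of NAA40-KD (+dox) with 1 library left out, where 3 against 4 allow no exact p below 0.0571. Levels without TMM moved by less than 1 SD for all 8 members. Depth limits *OAS1* and *OAS2*, with 25 counts or fewer per library.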
